A study of Rattus norvegicus with 18 samples.

Results

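The genes described here are the lysosome genes of 3 families, the cathepsins, the subunits of the vacuolar proton pump (V-ATPase) and the lysosome-associated membrane proteins (LAMPs), in neonatal rat ventricular myocytes. They were chosen by symbol (Cts and 1 letter, Atp6v0 or Atp6v1, Lamp and 1 digit) and had to average 0.5 FPKM or more across the 6 groups. FPKM is the number of sequenced fragments scaled by transcript length and by the mapped total. Of 17312 listed genes, 43 had such a symbol, and 30 of these reached the minimum: 11 cathepsins, 7 V0 subunits, 10 V1 subunits and 2 LAMPs. Among all genes, 11257 reached it.

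The cells were cultured from the hearts of Sprague-Dawley pups on day 2, plated in medium with 10% serum and kept without serum, with ITS, for 24 h. They were then pretreated for 24 h with vehicle or SR9009, a synthetic agonist of the repressor receptors REV-ERBα and REV-ERBβ, and given phenylephrine (PE), an α1-adrenergic agonist that makes cultured cardiomyocytes hypertrophic. RNA was sequenced in 6 groups of 3 libraries: vehicle and 0 h, 4 h or 48 h of PE, and SR9009 and 0 h, 4 h or 48 h of PE. No culture at 4 h or 48 h without PE was analysed here, so PE and time in culture cannot be told apart within an arm. The authors deposited 1 FPKM per gene and group with a lower and an upper bound, so no value below has a standard deviation, and no difference was tested.

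Lysosomes are acidic organelles that break down proteins, lipids and sugars delivered by endocytosis and autophagy. The V-ATPase acidifies them: its cytosolic V1 sector hydrolyses ATP and drives the rotation of the membrane sector V0, which carries the protons. Cathepsins are the proteases that work in this acid, and LAMP1 and LAMP2 are the main glycoproteins of the limiting membrane. In heart muscle LAMP2 is best known through Danon disease, a cardiomyopathy with autophagic vacuoles that its loss causes.

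Among the cathepsins, 4 supplied most of the transcript. Ctsb (chromosome 15, 46316741 to 46337613, rn6), a cysteine protease, stood at 315, 359 and 475 FPKM in vehicle at 0, 4 and 48 h, and at 328, 356 and 357 with SR9009. Its highest group was vehicle at 48 h, and the other 5 lay close together. Ctsd (chromosome 1, 215541570 to 215553446), the aspartic protease of the lysosome, had 337, 318 and 283 FPKM in vehicle and 367, 350 and 421 with SR9009. The lowest and the highest group of Ctsd were both at 48 h, vehicle and SR9009 respectively. Ctsl, a cysteine endopeptidase, had 302, 289 and 268 FPKM in vehicle and 337, 308 and 248.8 with SR9009, lowest at 48 h in either arm. Ctsa, a serine carboxypeptidase that also protects other lysosomal enzymes, lay between 155 (vehicle, 4 h) and 236 FPKM (SR9009, 0 h). Together these 4 made up between 78.9% (SR9009, 48 h) and 87.0% (SR9009, 4 h) of the FPKM of the 11 cathepsins. The aminopeptidase Ctsh followed with a mean of 134 FPKM, and Ctsc, which activates granule serine proteases, with 58.9. Ctsf (29.4), Ctsk (15.1), the collagenase of osteoclasts, and Ctsz (12.6) were lower. Ctss (2.85) and Ctsw (0.892), which are known from antigen-presenting cells and from cytotoxic lymphocytes, were lowest among the cathepsin members.

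V-ATPase subunits that are known to be expressed in most tissues carried nearly all of the pump's transcript. In V0 the highest were the proteolipid Atp6v0c, with 244, 242 and 297 FPKM in vehicle and 238, 317 and 260 with SR9009, the proteolipid Atp6v0b and the subunit d gene Atp6v0d1. Atp6v0b had 157, 161 and 168 FPKM in vehicle and 178, 192 and 192 with SR9009. Atp6v0d1 had 108, 98.4 and 98.2 FPKM in vehicle and 132, 106 and 115 with SR9009. SR9009 at 4 h was the highest group of Atp6v0c and of Atp6v0b, and SR9009 at 0 h that of Atp6v0d1. In V1 the stalk genes Atp6v1f, Atp6v1d and Atp6v1g1 were highest. Atp6v1f had 151, 183 and 152 FPKM in vehicle and 223, 212 and 177 with SR9009. Atp6v1d had 136, 160 and 139 FPKM in vehicle and 181, 233 and 191 with SR9009, so that the 3 SR9009 groups all lay above the 3 vehicle groups. Atp6v1g1 had 140, 133 and 152 FPKM in vehicle and 159, 170 and 148 with SR9009. The catalytic subunit Atp6v1a had 26.0 to 41.6 FPKM and its partner Atp6v1b2 44.1 to 62.2.

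Where a subunit has several genes, the same one was higher in all 6 groups. Atp6v0a1 was between 3.41 and 4.91 times Atp6v0a2, and Atp6v1c1 between 40.3 and 55.6 times Atp6v1c2. Atp6v0e1 was 2.75 times Atp6v0e2 with SR9009 at 4 h and 1.70 times with SR9009 at 48 h. Of the genes matched by symbol, Atp6v0a4, Atp6v0d2, Atp6v1b1, Atp6v1e2 and Atp6v1g3, which are known from kidney, bone or testis, stayed below the minimum.

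The minimum left out 13 symbols. Just inside it were Ctsw at 0.892, Atp6v1c2 at 1.18 and Ctss at 2.85 FPKM, and just outside Ctsj at 0.251, Atp6v1b1 at 0.153 and Lamp3, a LAMP of maturing dendritic cells, at 0.148. The others outside were Ctse, Ctsg and Lamp5, with the placental cathepsins Ctsm, Ctsq and Ctsr, beside the pump genes already named.

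**Figure D1:**
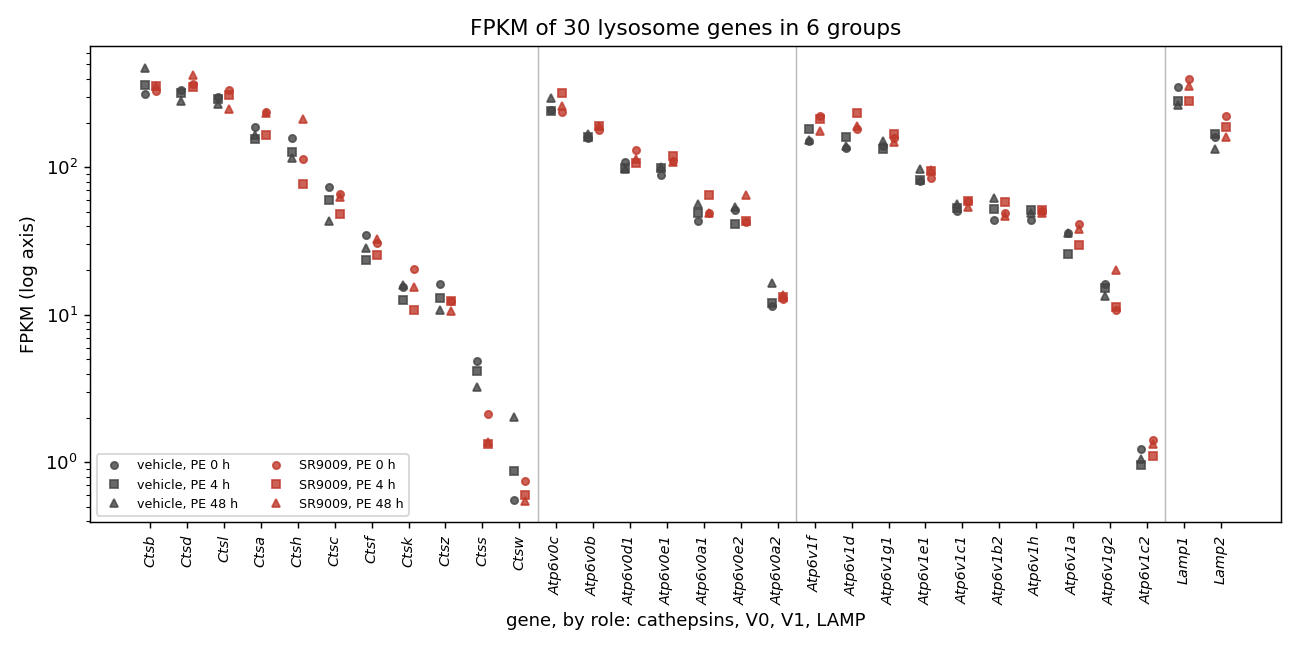
FPKM (log axis) of the 30 genes, in the order cathepsins, V0, V1 and LAMP, with 1 point per group: grey for vehicle, red for SR9009, and circle, square and triangle for 0, 4 and 48 h of PE. Most genes lie in a narrow band, with Ctsb, Ctsd and Lamp1 highest, and the groups spread farthest for Ctsh, Ctss and Ctsw.

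Lamp1 (chromosome 16, 81689588 to 81706561, rn6) was as high as the leading cathepsins and stood above Lamp2 (chromosome X, 124722628 to 124766044) in all 6 groups. Lamp1 had 350, 281 and 264 FPKM in vehicle and 395, 280 and 354 with SR9009. Lamp2 had 160, 169 and 134 FPKM in vehicle and 221, 186 and 160 with SR9009. For both, vehicle at 48 h was the lowest group and SR9009 at 0 h the highest. The table gives 1 value per gene, so the Lamp2 splice forms were not analysed here.

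TFEB, TFE3 and MITF, basic helix-loop-helix factors that are known to drive lysosome genes, bind the E-box CACGTG, preferably flanked as in TCACGTG. RefSeq promoters (assembly GRCr8, 250 bases before to 50 after a start) were matched for 24 of the 30 genes and searched on both strands. CACGTG was in 5 of the 24 (20.8%), namely Lamp1, Ctsd, Ctsf, Atp6v0d1 and Atp6v0e1, against 9.07% of the promoters of all genes above the minimum and 6.42% of all promoters. TCACGTG, each of which contains a CACGTG, was in 4 (16.7%), against 5.33% and 3.20%. The element TAGGTCA, which REV-ERB and ROR receptors bind, was in 0 of the 24, against 1.73% and 2.63%. The Lamp1 window held CACGTG 5 times and the Ctsd window 2 times, with a TCACGTG flank at every place. They are shown with that of Atp6v0d1 as the examples of a LAMP, a cathepsin and a pump subunit with the flanked E-box, picked after the matches and values were seen. The start used for Lamp1 lies inside the span RefSeq gives that gene. Capitals mark TCACGTG on either strand, and each sequence runs 5′ to 3′ along its gene, all 3 of which lie on the minus strand, at chr16:83075014-83075313, chr1:206968772-206969071 and chr19:50357199-50357498 of GRCr8.
Lamp1: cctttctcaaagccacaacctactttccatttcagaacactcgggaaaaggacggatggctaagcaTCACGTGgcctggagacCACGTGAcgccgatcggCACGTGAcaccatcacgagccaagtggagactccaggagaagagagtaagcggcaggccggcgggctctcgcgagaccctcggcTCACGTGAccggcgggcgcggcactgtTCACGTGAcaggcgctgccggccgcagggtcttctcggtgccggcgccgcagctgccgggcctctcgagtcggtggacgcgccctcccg
Ctsd: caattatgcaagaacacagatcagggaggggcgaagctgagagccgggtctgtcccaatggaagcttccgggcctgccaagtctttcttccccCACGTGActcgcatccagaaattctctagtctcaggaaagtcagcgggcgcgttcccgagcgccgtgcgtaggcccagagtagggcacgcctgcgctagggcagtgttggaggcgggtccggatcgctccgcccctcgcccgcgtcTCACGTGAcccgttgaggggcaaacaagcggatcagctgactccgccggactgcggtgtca
Atp6v0d1: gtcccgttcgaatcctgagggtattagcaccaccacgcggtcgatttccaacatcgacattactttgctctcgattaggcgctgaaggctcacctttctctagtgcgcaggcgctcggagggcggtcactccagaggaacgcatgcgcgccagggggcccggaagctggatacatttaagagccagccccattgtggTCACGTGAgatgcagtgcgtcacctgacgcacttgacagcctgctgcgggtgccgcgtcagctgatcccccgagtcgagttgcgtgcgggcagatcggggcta
A match of letters is a description and shows no binding in these cells.

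Differences below are of log2(FPKM + 1). In parentheses stands the widest range possible under the authors' bounds. Both PE comparisons of an arm share its 0 h group, and the SR9009 comparisons use the same 6 groups again. A gene is called higher or lower at 2-fold or 1.5-fold when its difference reaches that size and the range excludes 0. For every member except Ctss, Ctsw, Ctsz, Atp6v1c2 and Atp6v1g2 the half-width of the bounds lay between 12.0% and 17.6% of the value. The pump subunits varied least. The highest group was under 1.5 times the lowest for 17 of 30 members (56.7%), against 36.1% of all genes above the minimum and 45.8% of those with a mean of at least 10 FPKM. That held for 6 of 7 V0 and 7 of 10 V1 subunits, but for 3 of 11 cathepsins (27.3%), a smaller share than of all genes. It was at least 2 times the lowest for Ctsh, Ctss and Ctsw, 10.0% of the members and 27.3% of the cathepsins, against 32.7% of all genes. Over the 8 comparisons made, 2 of 30 members were called at 2-fold in any, Ctsh and Ctss, against 16.5% of 11090 genes. At 1.5-fold 7 of 30 were, against 40.3%: 6 of 11 cathepsins, 1 of 17 pump subunits (Atp6v0e2) and 0 of 2 LAMPs. Ranges excluded 0 at any size for 19 of 30, against 57.8%.

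Vehicle cultures at 4 h of PE were first set against those at 0 h. No lysosome gene was called, at 2-fold or at 1.5-fold, where 4.85% and 16.2% of 11126 genes were. Ranges excluded 0 for Ctsf, 35.0 and 23.6 FPKM, at -0.55 (-0.97 to -0.12), and for the catalytic subunit Atp6v1a, 35.8 and 26.0 FPKM, at -0.44 (-0.84 to -0.05). That is 2 of 30, against 26.8% of all genes. The 11 cathepsins had a median of -0.27 with 2 above 0, and all genes a median of -0.03. The 17 pump subunits had a median of 0.03, which became -0.16 with FPKM rescaled to equal sums and -0.05 with quantile normalization. After 4 h of PE with SR9009, Ctsk was the single gene called at 1.5-fold, against 15.7% of all genes, and none was at 2-fold, against 4.24%. Its level was 20.4 FPKM before PE against 10.7 after, which differ by -0.87 (-1.32 to -0.43). Fibroblast markers summed to 1842 and 939 FPKM in the same groups. Large terms of that sum were Col3a1 (656 and 270 FPKM) and Postn (391 and 113), while Dcn had 125 and 89.8. All 9 fibroblast markers above the minimum were below 0 there, with a median of -0.53. In vehicle at 0, 4 and 48 h the fibroblast markers summed to 2089, 1221 and 1330 FPKM, and Ctsk stood at 15.5, 12.5 and 15.9. The part of fibroblasts in the Ctsk difference was not tested. Fewer cells of a type and less RNA per cell cannot be told apart in these bulk cultures. In the SR9009 arm Lamp1 (-0.49, -0.90 to -0.09), Ctsa (-0.51, -0.96 to -0.07), Ctsh (-0.56, -0.97 to -0.15), Ctsc (-0.43) and Atp6v1a (-0.48) were lower with ranges that excluded 0. Atp6v0c was higher (0.41, 0.03 to 0.80). With Ctsk these 7 of 30 had ranges that excluded 0, against 26.3% of all genes.

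After 48 h of PE in vehicle, the cathepsins diverged. Ctsb was higher, with 475 FPKM against 315 at 0 h, a difference of 0.59 (0.18 to 1.00). Ctsc was lower, with 43.0 FPKM against 73.3, at -0.76 (-1.14 to -0.37). Ctsw had 2.03 FPKM against 0.556, at 0.96 (0.12 to 1.81), on wide bounds. These 3 of 30 genes were called at 1.5-fold, against 21.0% of 11122 genes, and 0 at 2-fold, against 8.47%. The call of Ctsb depends on the scaling: its difference was 0.37 with equal sums and 0.36 with quantile normalization, and it was then not called. Ctsh (-0.43, -0.86 to -0.01) and Lamp1 (-0.40, -0.81 to -0.002) were lower with ranges that barely excluded 0, and Ctsd, at -0.25 (-0.67 to 0.17), had a range that included it. In all, 7 of 30 had ranges that excluded 0, against 30.7% of all genes. In the same comparison 9 of 9 fibroblast markers (median -1.24; 6 lower at 2-fold), 12 of 12 macrophage markers (median -0.55; 2 lower at 2-fold) and 7 of 7 endothelial markers (median -0.53) were below 0, and 6 of 11 cardiomyocyte markers above it. Their part in these differences was not tested. The Ctsb to Ctsd ratio of FPKM was 1.68 in this group, the highest of the 6.

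Pump subunits lay slightly above 0 at this time, 14 of 17, with a median of 0.11, while 49.5% of all genes were above 0. That sign too depends on the scaling, since 5 of 17 were above 0 with equal sums (median -0.11). The regulatory subunit Atp6v1b2 went from 44.1 to 62.2 FPKM, at 0.48 (0.08 to 0.89), and Atp6v0a2, an a subunit found on the Golgi and endosomes, from 11.6 to 16.6, at 0.48 (0.08 to 0.89).

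With SR9009 the 48 h comparison had another leading gene. Ctsh was higher at 48 h of PE, with 214 FPKM against 114 at 0 h, a difference of 0.90 (0.49 to 1.32). Atp6v0e2 was the other gene called at 1.5-fold, with 64.5 against 42.5 FPKM at 0.59 (0.16 to 1.02). They are 2 of 30, against 9.41% of all genes, and 0 were called at 2-fold, against 2.27%. With equal sums Atp6v0e2 stood at 0.49 and was not called. Lower with ranges that excluded 0 were Lamp2 (-0.46, -0.85 to -0.08) and Ctsl (-0.44, -0.86 to -0.02), which makes 4 of 30 with such ranges, against 18.0%. Ctsb (0.12, -0.30 to 0.54) and Ctsc (-0.07, -0.45 to 0.29) had ranges on both sides of 0 here.

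**Figure D2:**
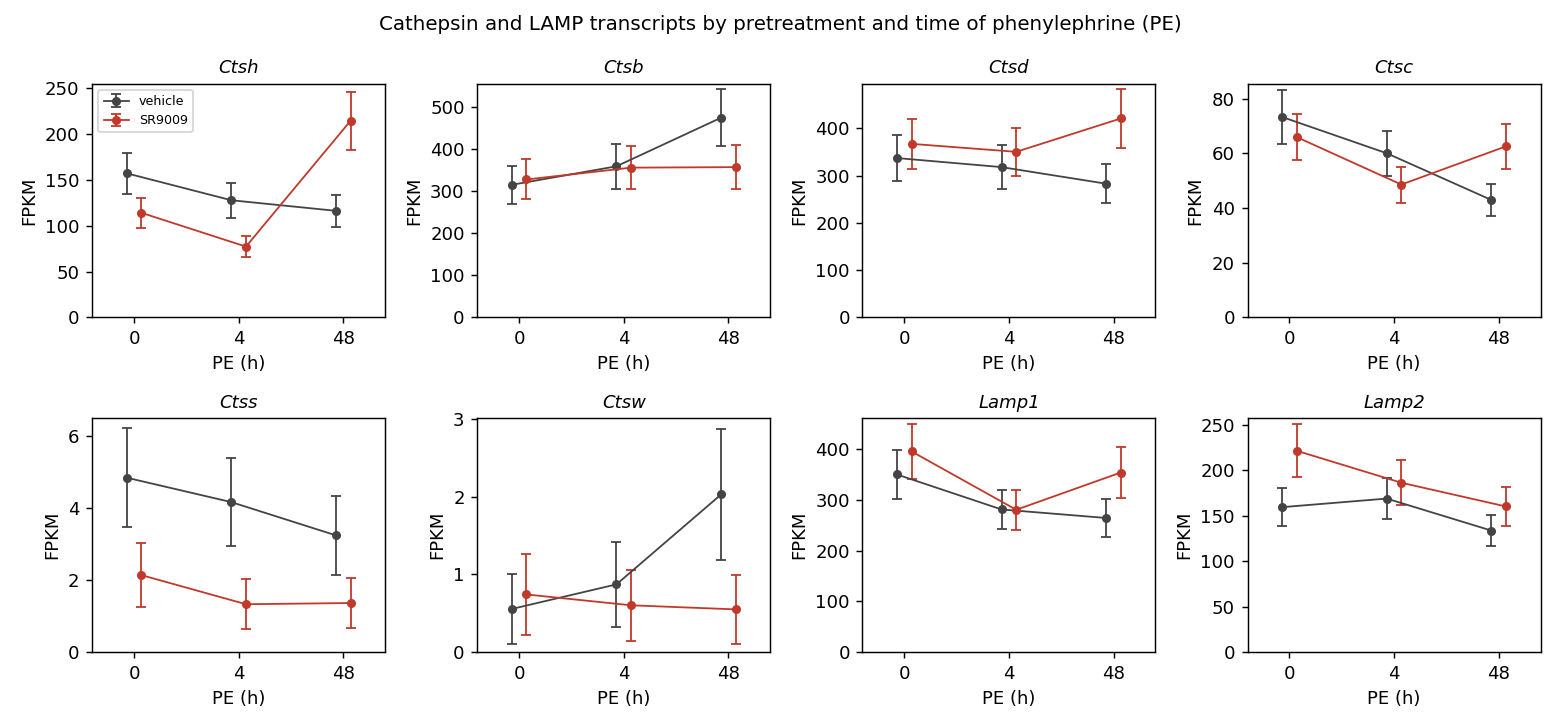
FPKM of 6 cathepsins and both LAMPs against hours of PE (evenly spaced, not to scale), grey for vehicle and red for SR9009; points are the authors' group values and bars their confidence bounds. Ctsh with SR9009 lies under vehicle at 0 and 4 h of PE (114 and 77.2 FPKM) and above it at 48 h (214 against 116).

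SR9009 was next compared with vehicle at each time. Before PE, Ctss was the 1 gene called at 1.5-fold, against 4.55% of 11123 genes, and 0 were called at 2-fold, against 1.03%. It had 4.85 FPKM in vehicle and 2.14 with SR9009, a difference of -0.90 (-1.67 to -0.16). Higher with ranges that excluded 0 were Atp6v1f, 151 and 223 FPKM, at 0.56 (0.14 to 0.99), and Lamp2, 160 and 221 FPKM, at 0.47 (0.09 to 0.85). Ctsh was lower, 157 and 114 FPKM, at -0.46 (-0.87 to -0.05). With Ctss these 4 of 30 had ranges that excluded 0, against 9.57% of all genes. Of the 17 pump subunits 14 lay above 0 (median 0.18), as did 46.3% of all genes. The count was also 14 under the 3 other scalings (equal sums, median centring, quantile normalization).

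At 4 h of PE, Ctss was called at 2-fold: its levels were 4.17 (vehicle) and 1.33 FPKM (SR9009), which differ by -1.15 (-1.96 to -0.38); 1.47% of 11120 genes met that rule. Ctsh, with 128 and 77.2 FPKM, was at -0.72 (-1.14 to -0.30). These 2 of 30 were called at 1.5-fold, against 6.84% of all genes. Of the 17 pump subunits 16 lay above 0, with a median of 0.18, and 40.2% of all genes did; the count was 16 under the 3 other scalings. The exception was Atp6v1g2. Atp6v1d, part of the central rotor shaft, had 160 and 233 FPKM, at 0.54 (0.13 to 0.95), and the proteolipid Atp6v0c 242 and 317 FPKM, at 0.39 (0.01 to 0.78). The other subunits had ranges that included 0. In all, 4 of 30 members had ranges that excluded it, against 13.8% of all genes. Atp6v1d met the 1.5-fold rule under 3 scalings, at 0.60 to 0.63.

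At 48 h of PE the cathepsins were divided, with 5 of 11 higher and 6 lower with SR9009 than with vehicle. Their median was -0.03, and it was 0.07 with equal sums, where 8 of 11 were higher. Pump subunits no longer lay mostly above 0: 9 of 17 did (median 0.07), as did 45.8% of all genes. That count depends on the scaling, with 13 under equal sums and quantile normalization and 12 under median centring. Ctsh, at 116 FPKM (vehicle) and 214 (SR9009), differed by 0.88 (0.45 to 1.31) and was called at 1.5-fold. Ctsd had 283 and 421 FPKM, at 0.57 (0.15 to 0.99), and Ctsc 43.0 and 62.6, at 0.53 (0.15 to 0.91). Ctsa, with 166 and 234 FPKM, was at 0.49 (0.04 to 0.95), and Lamp1, with 264 and 354, at 0.42 (0.01 to 0.83). Atp6v1d was again higher, 139 and 191 FPKM, at 0.45 (0.05 to 0.86). These 6 had ranges above 0 and 2 others, Ctss and Ctsw, below it, which makes 8 of 30, against 27.3% of 11114 genes. Ctsb went the other way, with 475 and 357 FPKM, at -0.41 (-0.82 to 0.01), a range that just included 0. Ctss (3.25 and 1.37 FPKM, -0.84, -1.69 to -0.03) and Ctsw (2.03 and 0.551 FPKM, -0.97, -1.80 to -0.14) were called lower at 1.5-fold, which makes 3 of 30 at that size, against 17.6%, and 0 at 2-fold, against 6.56%. With equal sums Ctsa (0.60), Ctsc (0.64) and Ctsd (0.68) also met the 1.5-fold rule, and Ctss (-0.76) did not. All 5 genes with the E-box in their promoter were above 0 here, from 0.12 (Atp6v0e1) to 0.57 (Ctsd), as were 10 of 19 without it. Before PE these counts were 4 of 5 and 13 of 19. At 4 h they were 4 of 5 and 13 of 19. After 48 h of PE in vehicle 1 of the 5 and 10 of the 19 were above 0.

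**Figure D3:**
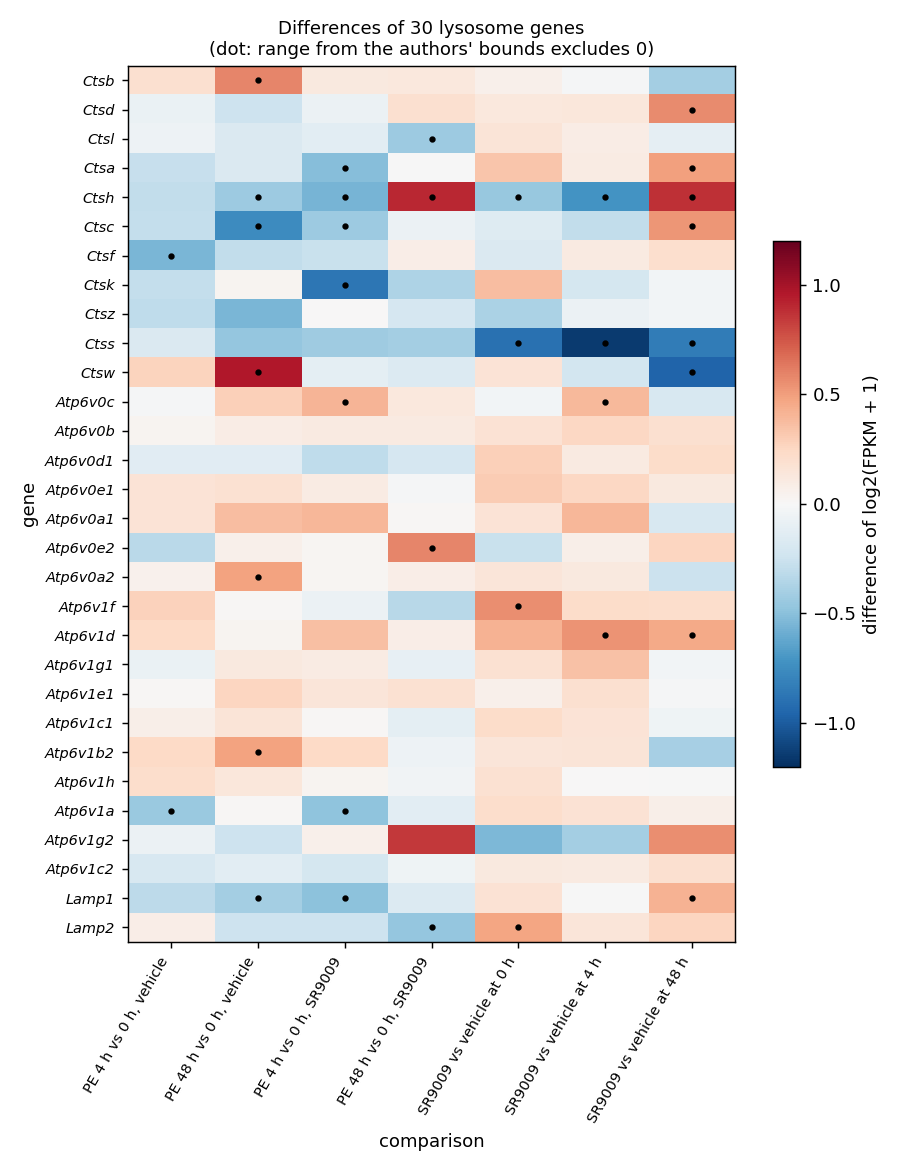
Differences of log2(FPKM + 1) for the 30 genes (rows, by role) in 7 comparisons of 2 groups (columns), from blue (lower) to red (higher); a dot marks a range that excludes 0. Pump subunits other than Atp6v1g2 are mostly pale, and 16 of the 17 pump subunits lie above 0 for SR9009 at 4 h. The strongest colours are in Ctss, Ctsw, Ctsh, Ctsk and Atp6v1g2.

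The interaction is the 48 h PE difference with SR9009 minus that with vehicle. Ctsh (chromosome 8, 97439204 to 97458291, rn6) was the single member called, at 1.34 (0.50 to 2.18), of 30, against 8.58% of 11099 genes at 2-fold and 12.5% at 1.5-fold. Its 6 values were 157, 128 and 116 FPKM in vehicle and 114, 77.2 and 214 with SR9009. They were lower with time of PE in vehicle, whereas with SR9009 the 4 h group was the lowest of all 6 and the 48 h group the highest. Under the 3 other scalings the interaction was 1.35 to 1.49. Its share of cathepsin FPKM was 5.70% with SR9009 at 4 h and 13.4% at 48 h. Ctsc was at 0.68 (-0.07 to 1.44) and met the 1.5-fold rule with equal sums (0.80) and with quantile normalization (0.82). Ctsw at -1.13 (-2.84 to 0.58) and Atp6v1g2 at 1.09 (-2.18 to 4.94) were smaller than that of Ctsh, with ranges that included 0. Cd74 is the invariant chain that lysosomal proteases trim in antigen-presenting cells. It had 19.0, 21.9 and 3.34 FPKM in vehicle and 3.46, 3.42 and 9.77 with SR9009. With SR9009 it too was higher at 48 h than at 4 h, but the other macrophage markers above the minimum were divided. Cd14, Mrc1, Tyrobp and Fcer1g were higher at the later time, and Csf1r, Adgre1, C1qa, C1qb, C1qc, Ptprc and Aif1 lower. Markers of several cell types moved with the interaction: 7 of 9 fibroblast markers (median 1.05), 11 of 11 cardiomyocyte markers (median 0.53) and 12 of 12 macrophage markers (median 0.42) were above 0. At 2-fold, 5 of the fibroblast and 5 of the cardiomyocyte markers were called higher, and of the macrophage markers Cd74 alone. Smooth muscle markers were divided, 4 of 8 above 0 (median -0.29; Cnn1 and Acta2 lower at 2-fold), as were endothelial markers, 4 of 7. Their part in the Ctsh value was not tested.

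Several values are uncertain in their assignment. Atp6v1g2 is listed with a locus of 304626 bases on chromosome 20 (4638663 to 4943288) that it shares with 17 other symbols, among them Ddx39b, and its bounds reached 45.3% to 70.0% of the value. Ctsa shares its locus (chromosome 3, 161296303 to 161322289) with Neurl2 and Pltp, and Ctsz (chromosome 3, 172510840 to 172537877) with Nelfcd. Cysteine cathepsins also belong to a multigene family, and how reads shared between copies were assigned is not given in the sources used here.

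Macrophages, which such cultures can hold, are known to express Ctss (chromosome 2, 197653137 to 197679768, rn6) strongly. Ctss had 4.85, 4.17 and 3.25 FPKM in vehicle and 2.14, 1.33 and 1.37 with SR9009; the 3 SR9009 groups were all below the 3 vehicle groups. All 14 macrophage markers were listed above 0 in every group, and their summed level was 60.1, 61.4 and 26.1 FPKM in vehicle and 22.1, 19.5 and 25.3 with SR9009. Without Cd74 the sums lay between 22.7 and 41.1 FPKM in vehicle and between 15.6 and 18.6 with SR9009. With SR9009 all 12 markers above the minimum were below 0 before PE (median -0.77, 4 lower at 2-fold) and at 4 h (6 lower at 2-fold). At 48 h 9 of 12 were below 0 (median -0.22), with C1qa and C1qb lower and Cd74 higher at 2-fold. The part of macrophages in the Ctss difference was not tested. For Ctsw, the 7 lymphocyte markers in the table were all below the minimum and summed to between 0.0978 and 0.549 FPKM, too little to compare across groups. Of these, Cd3e, Cd3g, Nkg7, Gzmb, Prf1 and Cd79b were listed at 0 in at least 1 group. The 10 fibroblast markers, of which Col1a2 was listed at 0 in every group, summed to 2089, 1221 and 1330 FPKM in vehicle and 1842, 939 and 1315 with SR9009, and the 11 cardiomyocyte markers in the table to between 11565 (SR9009, 0 h) and 24069 (vehicle, 48 h). At 48 h of PE 6 of 9 fibroblast markers above the minimum were higher with SR9009 than with vehicle, Dcn and Lum at 2-fold, and 7 of 11 cardiomyocyte markers, Pln at 2-fold.

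**Figure D4:**
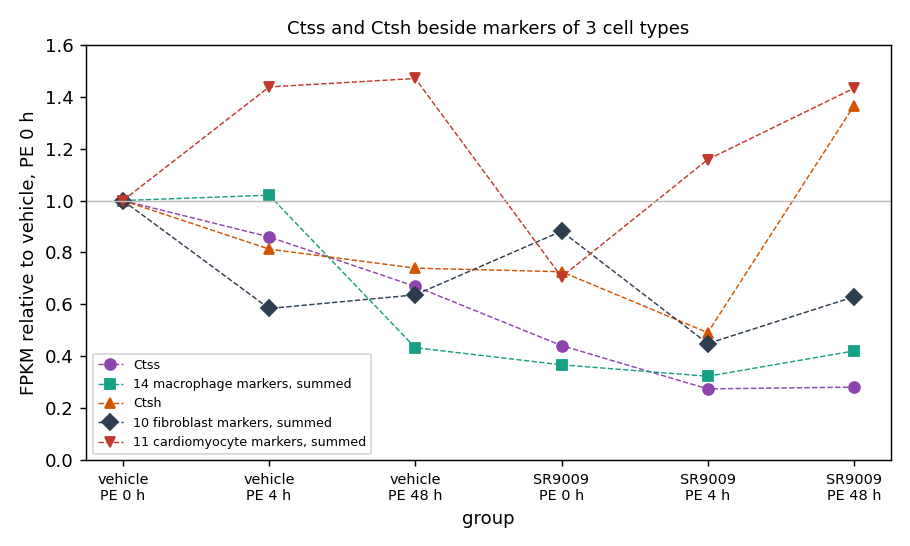
Ctss, Ctsh and the summed macrophage, fibroblast and cardiomyocyte markers in the 6 groups, each as FPKM relative to vehicle at 0 h of PE. Ctss and the macrophage sum are both lowest in SR9009 groups. At 48 h the macrophage sum is nearly level between vehicle (0.434) and SR9009 (0.421), where Ctss has 0.669 and 0.282. Of the 12 macrophage markers above the minimum, 9 are lower with SR9009 at that time, and Cd74 is higher. Leaving Cd74 out, the sum is 15.6 FPKM under SR9009, less than the 22.7 FPKM of the vehicle group. With SR9009 at 0 and 48 h Ctsh (0.726 and 1.36) lies near the cardiomyocyte sum (0.706 and 1.43), and the fibroblast sum is 0.882 and 0.629. In vehicle at 4 and 48 h and with SR9009 at 4 h, Ctsh has 0.813, 0.740 and 0.492. The cardiomyocyte sum there is 1.44, 1.47 and 1.16, and the fibroblast sum 0.585, 0.637 and 0.449.

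Genes that work with these families were counted from 6 lists, for which no other scaling was run. Of 41 other lysosomal hydrolases above the minimum, 35 were below 0 after 4 h of PE in vehicle (median -0.29; 6 lower and 1 higher at 1.5-fold, where 16.2% of all genes were called), and 34 with SR9009 (median -0.42; 14 lower and 2 higher, against 15.7%). The dipeptidyl peptidase Dpp7 was the 1 called at 2-fold, with SR9009, from 179 to 82.0 FPKM, at -1.12 (-1.52 to -0.71). At 48 h of PE 29 of the 41 were higher with SR9009 than with vehicle (median 0.24; 6 higher and 1 lower at 1.5-fold, against 17.6% of all genes). Before PE 29 of 41 were also higher (median 0.10), and at 4 h 17 of 41 (median -0.02). Among 30 other lysosomal membrane proteins, 7 were above 0 and 23 below it after 4 h of PE in vehicle, while 47.0% of all genes were above 0. At 1.5-fold 5 of the 30 were lower and 0 higher, near the 16.2% of all genes called. After 48 h of PE in vehicle 2 of the 30 were called at 2-fold, against 8.47% of all genes. The peptide transporter Abcb9 had 3.87 FPKM at 0 h and 10.1 at 48 h in vehicle and 1.41 and 2.51 with SR9009. Cln8, an ER protein that sorts lysosomal enzymes, had 13.5 and 30.2 in vehicle and 22.9 and 19.4 with SR9009. Abcb9 was the 1 called with SR9009 against vehicle at 0 h and at 48 h, where 1.03% and 6.56% of all genes were. Cln8 was the 1 called in the interaction, against 8.58%. Of 18 genes of delivery to lysosomes, 0 were called at 2-fold in any of the 8 comparisons, against 16.5% of 11090 genes. At 1.5-fold 1 was higher and 3 were lower after 4 h of PE in vehicle, against 16.2% of all genes.

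Among 8 regulators of the MiT/TFE pathway, 1 was called at 2-fold after 4 h of PE in vehicle, against 4.85% of all genes. It was Mitf, lower with 20.5 and 8.95 FPKM, at -1.11 (-1.49 to -0.73). The GTPase gene Rragd was lower after 48 h, 30.1 and 14.2 FPKM, at -1.03 (-1.48 to -0.59), and its interaction was 1.17 (0.30 to 2.04). In each of these 2 comparisons Rragd was the 1 of 8 called at 2-fold, against 8.47% and 8.58% of all genes. Tfeb itself lay between 17.6 and 24.9 FPKM in the 6 groups and Tfe3 between 10.6 and 16.3. Of 11 accessory genes of the pump, 2 were lower at 2-fold after 48 h in vehicle, against 8.47% of all genes called. Oxr1, which encodes a TLDc protein, had 75.6 and 36.1 FPKM, at -1.05 (-1.45 to -0.65), and Atp6ap1l, a relative of an accessory subunit, was at 46.1 and 6.34 FPKM. With SR9009 Atp6ap1l was at 24.5 and 25.0 FPKM at these times, and its interaction was 2.71 (1.79 to 3.68). The same 2 of 11 were called higher at 2-fold in the interaction, against 8.58% of all genes. Of 4 cathepsin inhibitors above the minimum, 1 was called at 2-fold for SR9009 against vehicle at 48 h, against 6.56% of all genes. It was Serpinb1a, lower with 4.69 and 1.67 FPKM, at -1.09 (-1.71 to -0.50). The stefin Cstb had 238 FPKM in vehicle and 397 with SR9009 before PE, 362 and 625 at 4 h, and 276 and 305 at 48 h.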

How the data were processed

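What was measured is messenger RNA in 18 libraries (3 per group in 6 groups), prepared with a stranded kit per the labels' protocols. The authors deposited FPKM, 1 value per gene and group with a lower and an upper bound; no source used here gives the bounds' confidence level or how libraries were scaled. Tools named, per the submitters' processing notes, are TopHat, Cuffdiff, Trim Galore and FastQC, with rn6 as the build. Depth is unknown. The deposited FPKM of all genes summed to between 609018 and 710198 per group. Groups come from the sample titles.

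Here, differences of log2(FPKM + 1) were taken for genes that averaged 0.5 FPKM or more, with the widest range the bounds allow. Values with a failed status, 172 values outside their own bounds and values listed at 0 were left out, none of them from a member. Because the file holds no value per library, the planned limma test was not run, and a rule of size stood in for it (2-fold, or 1.5-fold, with a range that excludes 0). A range that excludes 0 at any size was added after the table was seen. The members and lists were chosen with earlier results of these data known. Named with all 6 values are members called at 2-fold and the highest 3 of each role. Loci are on rn6, start counted from 1: gene lengths then equal those of RefSeq for 2074 genes, against 277 otherwise. Python 3.11.15 and pandas 2.3.3 were used.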

Additional observations from a re-analysis of the deposited data

Results flagged for a closer look

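For Ctsh the 48 h PE difference had opposite signs in the 2 arms, and the SR9009 difference had opposite signs at 4 and 48 h. The arms differed by 1.34 (0.50 to 2.18), and the times by 1.60 (0.75 to 2.45). For Ctsc the SR9009 difference was below 0 at 4 h and above 0 at 48 h, a change of 0.83 (0.07 to 1.60). With 1 pooled value per group none of these differences was tested, and the 2 values of Ctsh share 2 of their groups.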

How the results depend on the processing

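No paired analysis was possible because the table holds 1 value per gene and group, so neither the replicate block nor leaving out each replicate could be run. Rescaling to equal sums moved the median of all genes to -0.20, -0.20, -0.18 and -0.13 for the 4 PE comparisons (vehicle 4 and 48 h, SR9009 4 and 48 h) and to 0.08 for the interaction. Of 224 counts of members called under 7 alternatives, 194 stayed within 1.5 times the count reported and 30 did not. The 194 include counts of 0 that stayed at 0, so they do not measure how stable the calls were. Of 56 medians, 49 moved by at most 0.1.

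Equal sums gave medians of -0.26 and -0.19 for PE in vehicle at 4 and 48 h, -0.15 for 4 h with SR9009, 0.21 for SR9009 at 48 h and 0.0085 for the interaction. At 1.5-fold it gave 2 lower in vehicle at 4 h, 1 higher and 3 lower at 48 h, 5 lower with SR9009 at 4 h and 1 higher at 48 h. For SR9009 against vehicle it gave 1 higher at 4 h, 4 higher and 1 lower at 48 h, and 2 higher for the interaction. Quantile normalization gave a median of -0.21 and 2 lower at 1.5-fold for vehicle at 4 h, 1 higher and 3 lower at 48 h with 1 higher at 2-fold, 4 lower for SR9009 at 4 h of PE, and, against vehicle, 1 higher at 4 h, 3 higher and 1 lower at 48 h, and 2 higher for the interaction. Median centring gave 1 higher for SR9009 at 4 h, and 2 higher and 1 lower at 48 h. A pseudocount of 0.1 added, at 2-fold, Ctsw as 1 higher in vehicle at 48 h, Ctss as 1 lower for SR9009 at 0 h, and both as 2 lower at 48 h. A minimum of 1 FPKM, which drops Ctsw, left 1 higher in vehicle at 48 h and 1 lower for SR9009 at 48 h. With no minimum the interaction median was -0.0071. Size alone gave 2 higher and 1 lower at 2-fold, and 3 higher and 1 lower at 1.5-fold, for the interaction. The cause was not tested where the scaling changed a call. The bounds, near 15% of the value for most members, limit what can be resolved.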
